A study of Rattus norvegicus with 48 samples.

Results

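Fibrillar collagen, fibronectin and lysyl oxidase were followed through 5 genes, which were taken by their Ensembl identifiers out of the 32662 rows of the count table. They are Col1a1 (ENSRNOG00000003897), Col1a2 (ENSRNOG00000011292), Col3a1 (ENSRNOG00000003357), Fn1 (ENSRNOG00000014288) and Lox (ENSRNOG00000014426). RNA was measured in the livers of 48 male Wistar rats (RjHan:WI), which were 6 weeks old when they were obtained and were housed in pairs. For 4, 8 or 12 weeks, 8 animals each were fed a choline-deficient diet with its protein given as L-amino acids and with 1% cholesterol (CDAA, spelled CDDA in the diet label), and 8 others were fed its choline-supplemented control (CSAA). CDAA supplied 31% of its energy as fat, 11% as protein and 58% as carbohydrate with 0.17% methionine, whereas CSAA supplied 16% as fat, 12% as protein and 72% as carbohydrate with 0.4% methionine. Choline, cholesterol, fat and methionine thus differed together between the diets, and their parts in a difference cannot be told apart. Which animals shared a cage or a sequencing pool was not used here.

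Scar tissue in the liver is built mainly from fibrillar collagens, which are secreted as procollagen by activated hepatic stellate cells and portal fibroblasts. Col1a1 and Col1a2 encode the chains of type I collagen, the main protein of mature scars, and Col3a1 encodes the chain of type III collagen, which forms thinner fibrils and lies in the healthy liver too. Fn1 encodes fibronectin, which hepatocytes secrete into plasma in large amounts and which mesenchymal cells lay down in the matrix as a scaffold for collagen. Lox encodes lysyl oxidase, the enzyme that starts the cross-linking of collagen and elastin.

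Each library held 13619274 to 22284359 reads on genes. Levels are given as CPM (reads per 1000000 reads on genes), corrected with TMM factors for the composition of the library, and, where genes are compared with each other, as the deposited RPKM, which also divides by gene length. TMM factors lay between 0.718 and 1.01 in the CSAA groups and between 0.827 and 1.43 in the CDAA groups. Without them, the median log2 fold change of all genes for CDAA against CSAA moved from -0.02 to 0.39 after 4 weeks, from 0.05 to 0.65 after 8 and from -0.09 to 0.73 after 12. Animals 303, 504, 908 and 1102 lay apart in an earlier principal component analysis of these data, and each was the highest or the lowest of its group in both collagens that could be tested. Results that rest on them are given with and without them. Since they are extreme in these genes, leaving them out narrows the spread and widens the diet effect by construction. Such values are therefore given as a description, without p and without the calls gained. In whole liver, a higher share of matrix-producing cells and more RNA per cell cannot be told apart.

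Both collagens that could be tested were higher on CDAA at every week. After 4, 8 and 12 weeks Col1a1 was 14.2-fold, 9.72-fold and 13.8-fold higher, and Col3a1 was 4.06-fold, 5.17-fold and 6.96-fold higher. Neither Fn1 nor Lox passed the thresholds at any week. With edgeR's quasi-likelihood test, an adjusted p under 0.01 and a log2 fold change of at least 1, 2 of the 4 members tested were thus called higher at each week, and Col1a2 had too few reads to be tested. Of all 12756 genes tested, 15.7%, 18.1% and 19.4% were called higher in the same comparisons. The median log2 fold change of the 4 members was 0.86, 1.76 and 1.59 at weeks 4, 8 and 12, beside medians over all genes close to 0.

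**Figure D1:**
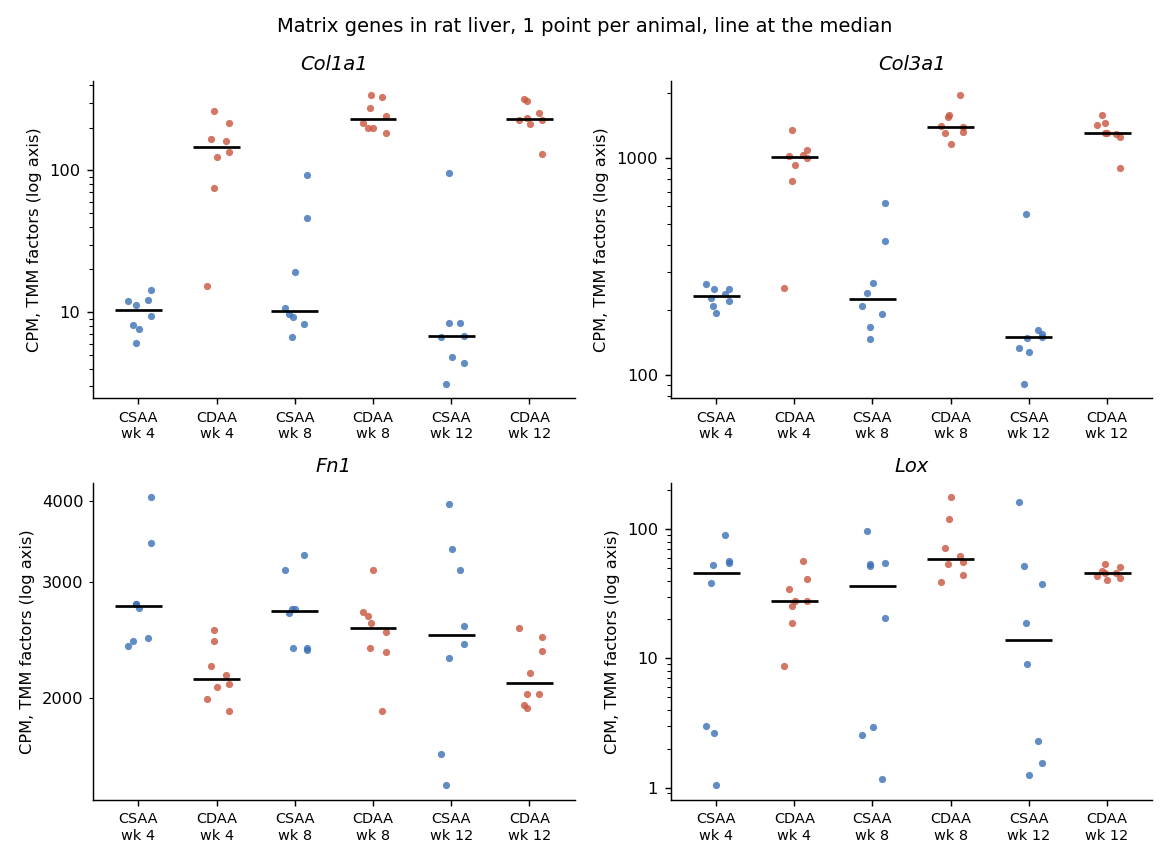
CPM with TMM factors of the 4 members tested (vertical axis, log scale) in the 6 groups of diet and week, with 1 point per animal, 8 animals per group and a line at the median. Col1a1 separated the diets at every week, Col3a1 did so except for 1 CDAA animal at week 4, Fn1 overlapped at every week, and Lox was scattered over about 2 orders of magnitude on CSAA but not on CDAA at week 12.

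Col1a1 was a minor transcript in the control livers. At week 4 it had between 6.04 and 14.4 CPM on CSAA (median 10.3), and between 15.2 and 261 CPM on CDAA (median 147). At week 8 the CSAA animals ranged from 6.66 to 92.5 CPM (median 10.2) and the CDAA animals from 184 to 338 CPM (median 230). At week 12 the range was 3.13 to 95.7 CPM on CSAA (median 6.75) and 131 to 318 CPM on CDAA (median 232). The lowest CDAA animal lay above the highest CSAA animal at all 3 weeks, although only narrowly at week 4, where animal 303 on CDAA had 15.2 CPM. Such a complete separation with every CDAA animal higher was found for 8.71%, 20% and 19.8% of all genes after 4, 8 and 12 weeks. The log2 fold change was 3.83 ± 0.57 (SE, edgeR adjusted p = 1.71e-07), 3.28 ± 0.55 (adjusted p = 8.99e-07) and 3.79 ± 0.57 (adjusted p = 7.41e-08). By fold change, Col1a1 ranked 103, 33 and 155 of 12756 genes in these comparisons.

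Col3a1 was well expressed on both diets and changed by a smaller factor than Col1a1. CSAA animals of week 4 had 193 to 264 CPM (median 231), those of week 8 had 147 to 623 CPM (median 223) and those of week 12 had 91.2 to 554 CPM (median 149). CDAA animals had 251 to 1350 CPM (median 1020), 1160 to 1950 CPM (median 1400) and 900 to 1590 CPM (median 1310) at the same weeks. At weeks 8 and 12 the diets did not overlap, and at week 4 animal 303 was the single CDAA animal inside the CSAA range. With edgeR, its log2 fold change was 2.02 ± 0.28 (SE, adjusted p = 2.54e-08), 2.37 ± 0.28 (adjusted p = 3.16e-10) and 2.80 ± 0.28 (adjusted p = 5.07e-12).

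Single animals set much of the spread in both collagens. Animal 908 on CSAA at week 12 had 95.7 CPM of Col1a1 and 554 CPM of Col3a1, while the other 7 animals of its group had at most 8.42 and 161 CPM. On CSAA at week 8, animal 504 had 92.5 CPM of Col1a1 and animal 502 had 46.4 CPM, and the same animals led the group in Col3a1 with 623 and 415 CPM. In the opposite direction, animal 303 on CDAA at week 4 had 251 CPM of Col3a1, where its group mates had at least 785 CPM. Animal 1102 on CDAA at week 12 had 131 CPM of Col1a1 against at least 213 CPM in the others. Without animals 303, 504, 908 and 1102, the log2 fold change of Col1a1 was 4.02, 4.01 and 5.46 at weeks 4, 8 and 12, and that of Col3a1 was 2.18, 2.69 and 3.41. Without animal 908 alone, Col1a1 reached 5.29 at week 12. Both genes stayed past the thresholds at every week when any single animal was left out.

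The row of Col1a2 was nearly empty. Among 875655879 reads on genes in all animals, 3 fell on Col1a2, 1 each in the CDAA animals 304, 704 and 1106, and 45 animals had 0. A count of 0 allows up to 3 reads, which is 0.135 to 0.22 CPM without TMM factors, depending on the library, and covers counting error only. Col1a1, whose product is assembled with that of Col1a2, had 43 reads in its lowest animal and 124742 in all. No fold change is given for Col1a2, and whether its transcripts were counted under another identifier was not tested.

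Fn1 was abundant in all groups and its level differed little between the diets. On CSAA it had 2400 to 4050 CPM (median 2760), 2370 to 3310 CPM (median 2710) and 1470 to 3950 CPM (median 2500) after 4, 8 and 12 weeks. The corresponding CDAA ranges were 1910 to 2540 CPM (median 2140), 1910 to 3140 CPM (median 2560) and 1930 to 2560 CPM (median 2110), and they overlapped those of CSAA at each week. In the edgeR fit the log2 fold change of Fn1 was -0.40 ± 0.13 (SE, adjusted p = 0.0074), -0.10 ± 0.13 (adjusted p = 0.497) and -0.25 ± 0.13 (adjusted p = 0.078), in the order of the weeks. Its 95% intervals were -0.66 to -0.14, -0.36 to 0.16 and -0.51 to 0.01. The sign depended on the scaling, since library sizes alone gave 0.02, 0.51 and 0.55 and removal of each library's trend with gene length gave -0.47, -0.67 and -0.59. Fn1 passed the fold change threshold under none of these, and with library sizes alone it lay below the all-gene medians of 0.39, 0.65 and 0.73.

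Lox was the most variable member on CSAA and the most uniform on CDAA at week 12. On CSAA it had 1.04 to 89.9 CPM (median 45.4) after 4 weeks, 1.16 to 97.0 CPM (median 36.2) after 8 and 1.25 to 162 CPM (median 13.9) after 12. On CDAA the corresponding levels were 8.80 to 56.8 CPM (median 27.7), 38.8 to 177 CPM (median 59.0) and 40.7 to 53.4 CPM (median 45.6). The SD of log2 CPM was 2.5, 2.44 and 2.54 in the CSAA groups, compared with 0.80, 0.74 and 0.13 in the CDAA groups. In each CSAA group 3 of 8 animals had an RPKM under 1, a limit chosen after the values were seen, and none of the 24 CDAA animals did. The 9 low control animals had 17 to 54 reads and the next one had 149.

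No difference in mean Lox level between the diets passed the thresholds. edgeR gave log2 fold changes of -0.30 ± 0.70 (SE, adjusted p = 0.723), 1.14 ± 0.71 (adjusted p = 0.139) and 0.38 ± 0.70 (adjusted p = 0.624) in the order of the weeks. The 95% intervals, -1.68 to 1.08, -0.25 to 2.53 and -0.99 to 1.76, include changes past the threshold in both directions at week 4 and upwards at weeks 8 and 12. edgeR compares arithmetic means, to which the high CSAA animals contribute most, whereas limma-voom averages on the log scale, and the latter gave 0.83 ± 0.79 at week 4 with the sign turned (adjusted p = 0.363). For Lox at weeks 8 and 12, limma-voom gave 2.25 ± 0.79 (adjusted p = 0.00968, past the threshold) and 2.10 ± 0.83 (adjusted p = 0.0207).

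**Figure D2:**
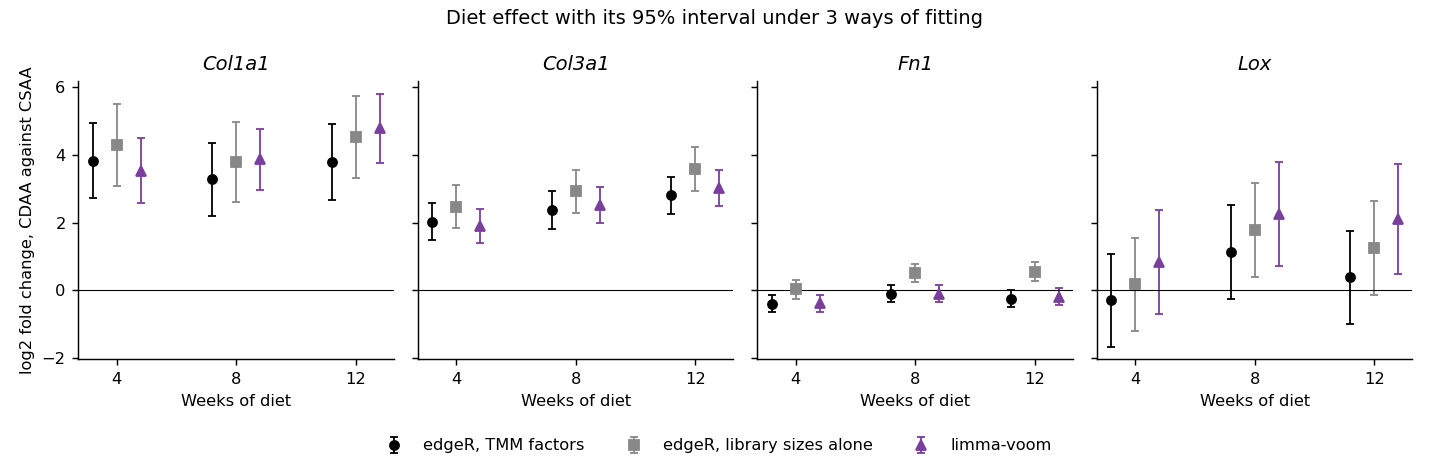
Log2 fold change of CDAA against CSAA (vertical axis) at 4, 8 and 12 weeks of diet for each member tested, with bars for 95% intervals. Black circles are the edgeR fit with TMM factors, grey squares the same fit with library sizes alone, and purple triangles limma-voom. All intervals of Col1a1 and Col3a1 lie above 0, the point estimates of Fn1 change sign between TMM factors and library sizes while several of its intervals include 0, and those of Lox are the widest.

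The time course within a diet was tested next. On CDAA, none of the 4 members passed the thresholds from week 4 to 8, from week 8 to 12 or from week 4 to 12, where 5.02%, 1.43% and 10.6% of all genes did. Col3a1 came closest between weeks 4 and 8, with a log2 fold change of 0.64 ± 0.27 (SE, edgeR adjusted p = 0.0405), and Col1a1 had 0.78 ± 0.50 in the same step (adjusted p = 0.195). Between weeks 8 and 12 on CDAA, Col1a1 differed by -0.05 ± 0.50, Col3a1 by -0.14 ± 0.26, Fn1 by -0.21 ± 0.13 and Lox by -0.76 ± 0.70. On CSAA, again 0 of the 4 members were called in edgeR's test from week 4 to 8, from week 8 to 12 and from week 4 to 12, beside 0.047%, 2.78% and 2.68% of all genes. At an unadjusted p under 0.05, Col3a1 passed from week 4 to 8 on CDAA, and Col1a1 (log2 fold change 1.33 ± 0.54) passed from week 4 to 8 and Col3a1 (-0.57 ± 0.27) from week 8 to 12 on CSAA, as the only members. At that limit, 7114 of all 12756 genes passed in the first of these comparisons, 2454 in the second and 6083 in the third. Without animals 303, 504, 908 and 1102, Col1a1 was lower on CSAA at week 12 than at week 8, with a log2 fold change of -1.41, where all animals gave -0.55 (edgeR adjusted p = 0.428). As a description, leaving out animal 908 alone gave -2.06 for Col1a1 and -1.03 for Col3a1 in this step, and leaving out animal 504 alone turned Col1a1 to 0.10.

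Whether the diet effect itself differed between weeks was tested as an interaction of diet and week. None of the 4 members was called, beside 4.25% of all genes for week 8 against 4, 4.01% for week 12 against 8 and 5.04% for week 12 against 4, and none had an adjusted p under 0.01 at any fold change. The diet effect on Col3a1 was 0.78 ± 0.38 larger on the log2 scale at week 12 than at week 4 (edgeR adjusted p = 0.105). That on Col1a1 differed by -0.04 ± 0.73 between the same weeks (adjusted p = 0.971). Without the 4 animals that stood apart the differences were 1.23 for Col3a1 and 1.44 for Col1a1. Without animal 908 alone, the difference between weeks 12 and 4 was 1.24 for Col3a1 and 1.46 for Col1a1, again as a description. At an unadjusted p under 0.05, only Col3a1 passed among the members, for week 12 against 4, where 5498 of all 12756 genes did. limma-voom and DESeq2 called 0 members in any comparison between weeks or of diet effects between weeks. Of all 12756 genes, limma-voom called between 6 and 1325 in these comparisons, and DESeq2 between 60 and 1350.

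The order of the 6 groups by mean log2 CPM was examined with two-sided exact permutation tests between neighbours (8 against 8 animals, adjusted over 20 tests). Which groups were neighbours was set by the same values, so these p-values are not those of pairs fixed beforehand. Col1a1 and Col3a1 had the same order, CDAA at week 8, 12 and 4 followed by CSAA at week 8, 4 and 12. In both, CDAA at week 4 lay above the highest control group, by 2.82 for Col1a1 and 1.77 for Col3a1 on the log2 scale (exact permutation, adjusted p = 0.0202 for each). CDAA at week 12 lay above CDAA at week 4 by 0.61 for Col3a1 and by 0.78 for Lox (exact permutation, adjusted p = 0.0373 for each), while for Col1a1 the step of 1.03 had an adjusted p of 0.0671 in the exact permutation test, and with library sizes alone it was 1.38 (exact permutation, adjusted p = 0.00738). For Lox the step was 0.53 without the 4 animals apart and no longer passed. In edgeR the same comparison of CDAA at week 12 with week 4 passed for none of these 3 genes. Col3a1 had 0.50 ± 0.27 (SE, edgeR adjusted p = 0.1), Lox 0.62 ± 0.70 (adjusted p = 0.459) and Col1a1 0.73 ± 0.50 (adjusted p = 0.207). CDAA at weeks 8 and 12 did not differ beyond their spread for Col1a1, Col3a1 or Lox, nor did neighbouring CSAA groups for any member. Without the 4 animals apart, CSAA at week 4 lay above CSAA at week 12 by 0.75 for Col1a1 and 0.76 for Col3a1, compared with 0.24 and 0.5 with all animals, and CDAA at week 12 lay above CDAA at week 4 by 0.73 for Col1a1. For Fn1 no neighbouring groups differed, with exact permutation adjusted p between 0.581 and 0.985, but with library sizes alone 4 of its 5 steps passed. CDAA then lay above CSAA by 0.51 at week 8 and 0.63 at week 12, CDAA at week 8 above CSAA at week 12 by 0.75 and CDAA at week 12 above CDAA at week 4 by 0.36 (exact permutation, adjusted p = 0.00544, 0.0076, 0.00622 and 0.00666). On that scale all genes moved too. In edgeR with library sizes alone, their median diet effect was 0.65 at week 8 and 0.73 at week 12. From week 4 to 12 on CDAA it was 0.29.

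Relative to the other genes of the same livers, the collagens moved far up. By mean RPKM, Col1a1 ranked 9187 of 12756 genes on CSAA at week 4 and 2289 on CDAA at that week, and 7964 against 1200 at week 12. Without animals 908 and 1102, the ranks of Col1a1 at week 12 were 10153 and 1112. The rank of Col3a1 was 1560 on CSAA and 364 on CDAA at week 4, and 1674 and 171 at week 12 (2239 and 165 without these animals). Fn1 stayed among the 322 highest genes in every group. In the control livers at week 4, median RPKM was 273 for Fn1, 39 for Col3a1, 8.21 for Lox and 1.43 for Col1a1, whereas on CDAA at week 12 it was 361 for Fn1, 383 for Col3a1, 13.7 for Lox and 54.2 for Col1a1. Per length, Col3a1 was thus on the level of Fn1 in the late CDAA livers.

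Ratios between members within the same animal do not depend on the scaling of its library. They were compared as log2 ratios of reads with two-sided exact permutation tests (12870 splits, adjusted over 18 tests). The RPKM of Col3a1 was 21.1 to 42.3 times that of Col1a1 on CSAA at week 4 (median 27.7) and 6.14 to 20.2 times on CDAA (median 8.54). The medians were 22.9 on CSAA and 7.17 on CDAA after 8 weeks, and 26.0 and 6.76 after 12 weeks. The log2 ratio of Col3a1 to Col1a1 was lower on CDAA, with differences of -1.64, -1.39 and -1.81 (exact permutation, adjusted p = 0.000699, 0.00112 and 0.00186). Col1a1 thus gained more than Col3a1 within the same livers. The control animals with raised collagen had ratios in or near the CDAA range, with a lowest value of 7.08 at week 12 and 8.23 at week 8.

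Fn1 lost ground to Col1a1 by a wider margin. Its RPKM was 208 times that of Col1a1 in the median CSAA animal at week 4 and 9.94 times in the median CDAA animal, and at week 12 these values were 304 and 6.72. The log2 ratio of Fn1 to Col1a1 was lower on CDAA, with differences of -3.93, -4.01 and -5.01 (exact permutation, adjusted p = 0.000699 for each, from the smallest p that 8 against 8 animals can give), and the diets did not overlap. Since Fn1 itself differed by only -0.40, -0.10 and -0.25 in edgeR, these differences mostly restate the diet effect on Col1a1. On CDAA, the ratio at week 12 differed from that at week 4 by -1.02 (exact permutation, adjusted p = 0.0516), and by -0.77 without animals 303 and 1102.

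Lox also fell behind Col1a1, less evenly. The Lox to Col1a1 ratio of RPKM ranged from 0.175 to 11.3 on CSAA at week 4 (median 5.48) and from 0.125 to 0.747 on CDAA (median 0.279). At week 12 it ranged from 0.253 to 30.9 on CSAA (median 0.925) and from 0.192 to 0.498 on CDAA (median 0.242). The log2 ratio differed by -2.82 at week 4 and -2.78 at week 12 (exact permutation, adjusted p = 0.0385 and 0.0112), and the difference of -1.73 at week 8 did not pass (exact permutation, adjusted p = 0.168). Without any 1 of the CSAA animals 102, 104, 105, 107 and 108 the difference at week 4 no longer passed (-2.65 to -2.48), and neither did that at week 12 without animal 1105 on CDAA (-2.72, exact permutation, adjusted p = 0.051). The diets overlapped at each week, and the control animals with little Lox had ratios like those of CDAA animals.

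**Figure D3:**
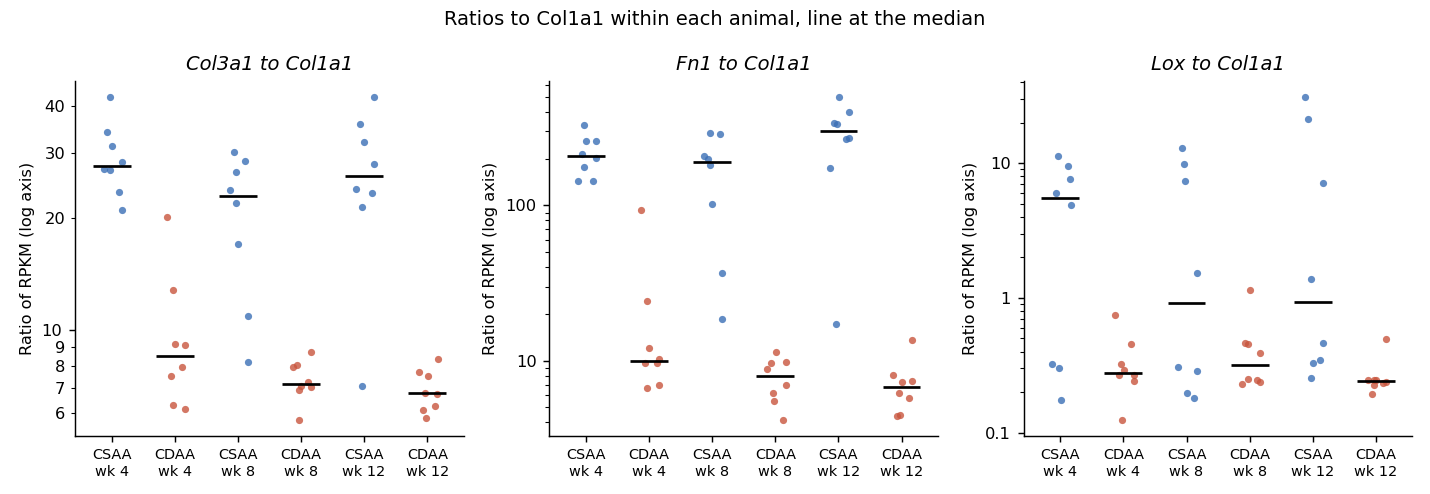
Ratio of the RPKM of Col3a1, Fn1 and Lox to that of Col1a1 in each animal (vertical axis, log scale) in the 6 groups, with a line at the median. Col3a1 to Col1a1 dropped from medians between 22.9 and 27.7 on CSAA to medians between 6.76 and 8.54 on CDAA, and the Lox ratio of CSAA animals reached from below to far above the CDAA values.

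Members were finally compared between animals of the same group, with group means removed (log2 CPM, 48 animals, 6 pairs of genes, 100000 permutations within groups). Col1a1 and Col3a1 varied together, with a Pearson r of 0.97 and a Spearman rho of 0.94 (permutation, adjusted p = 6e-05 for each, from the smallest p these permutations can give). Without the 2 animals farthest in Col1a1, 303 and 908, r was 0.94, but the group means removed still included them, so offsets between groups remained. Without all 4 animals apart, and with group means taken anew, r was 0.89. With all animals of a diet, r was 0.97 within the 24 CSAA animals and 0.97 within the 24 CDAA animals. Among the 12755 other genes, Col3a1 was the one most correlated with Col1a1, and Col1a1 the one most correlated with Col3a1. Across genes these correlations describe shared variation in the same libraries.

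Over all 48 animals, no relation of Fn1 or Lox with the collagens passed the permutation test. The r of Col1a1 was -0.05 with Fn1 (Spearman rho -0.18, permutation adjusted p = 0.824 and 0.322) and 0.16 with Lox (rho 0.13, adjusted p = 0.812 and 0.488). With library sizes alone, the r of Col1a1 with Fn1 was 0.23, also short of the threshold (permutation, adjusted p = 0.396). Within the 24 CDAA animals, Lox had an r of 0.59 with Col1a1 (rho 0.46, permutation adjusted p = 0.0664 and 0.107) and of 0.49 with Col3a1 (rho 0.31, adjusted p = 0.161 and 0.187). Without the 2 animals farthest in each collagen these r were 0.36 and 0.1, again with group means that still included them. Within the 24 CSAA animals the r of Lox was 0.09 and 0.03, and the difference between the diets was not tested. Between Fn1 and Lox, r was -0.32 and rho -0.27 (permutation, adjusted p = 0.297 and 0.205). Their r was -0.40 within CSAA and 0.24 within CDAA, a difference that was not tested either. No gene reached an r of 0.8 with Lox, where the highest was 0.66, compared with 204 genes for Col1a1, 183 for Col3a1 and 37 for Fn1. Without the 4 animals apart, these numbers were 0, 21, 14 and 76. For these numbers the group means removed still included the 4 animals, so offsets between groups remained in them.

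**Figure D4:**
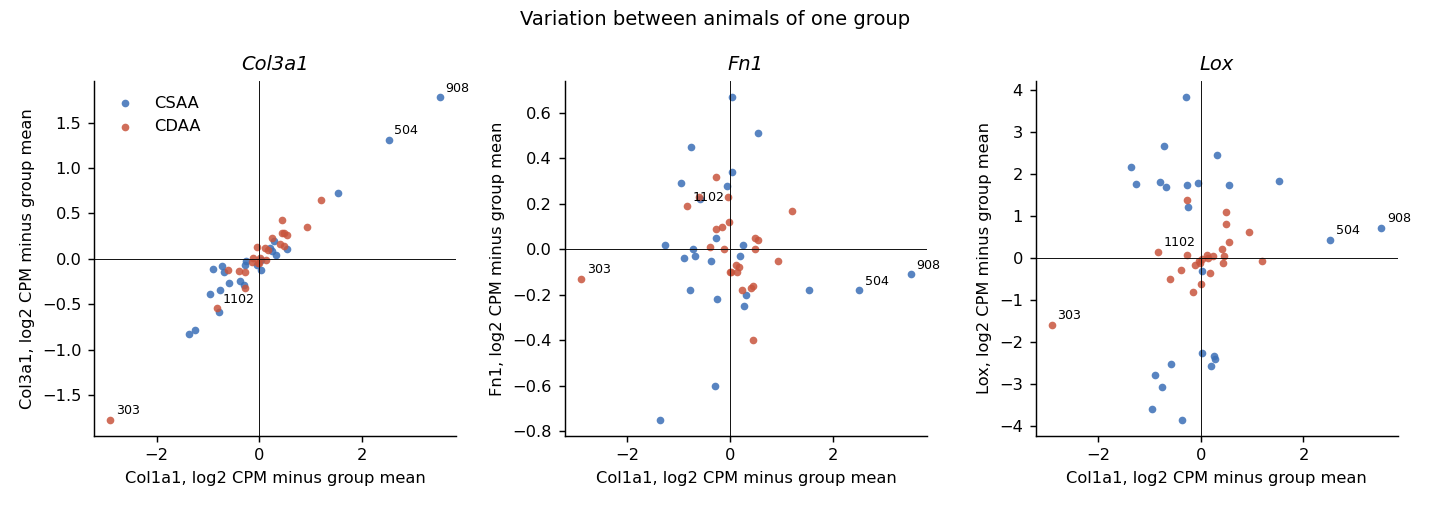
Deviation of Col3a1, Fn1 and Lox from their group mean (vertical axis, log2 CPM) against that of Col1a1 (horizontal axis, log2 CPM), with 1 point per animal, CSAA in blue, CDAA in red and 4 animals named by number. Col3a1 follows Col1a1 on a line (r = 0.97), Fn1 does not (r = -0.05), and the 9 CSAA animals lowest in Lox lie near or below the group mean of Col1a1.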

How the data were processed

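Liver polyA RNA was sequenced by the authors as single-end reads, aligned to Rnor_6.0 with STAR (2.5.2a per the labels) and counted per Ensembl gene with featureCounts. Raw counts were deposited for 48 animals without normalization. The authors also deposited RPKM values, which divide by gene length and by the total of each animal's gene reads. Here, counts were tested with edgeR 4.0.16 (TMM, quasi-likelihood test, all 48 animals in 1 fit, Benjamini-Hochberg adjustment) over 12756 genes that reached 1 CPM in 5 or more animals of some group. Calls needed adjusted p < 0.01 and a log2 fold change of 1 or more in size. Depth was 13619274 to 22284359 reads, so the spread between animals limits the precision for all members but Col1a2. Replicates are separate animals by their labels. log2 ratios used reads plus 0.5, and log2 CPM a prior count of 2. Permutation tests were computed with numpy 2.4.6, with ranks and adjustment from scipy 1.17.1, at an adjusted p of 0.05. limma 3.58.1, DESeq2 1.42.0, RPKM-based limma, other scalings, no filter, a fold change test and omitted animals were alternatives. The scripts were tested on simulated data.

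Symbols came with the identifiers that define the 5 genes. Members, gene lists and tests were chosen with earlier results of these data known. The genes named are these members alone. Prepared lists of pathway and cell type markers could not be matched, since the tables pair no symbols with Ensembl identifiers, so no marker of liver or of other cell types was checked. Col1a2 was left out of ratios, correlations and orders for lack of reads. The reference genome build differs from Rnor_6.0, so no coordinates or sequences are given.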

Additional observations from a re-analysis of the deposited data

Results flagged for a closer look

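In 6 of 24 combinations of member and group, 1 animal lay farther from its nearest neighbour than Dixon's criterion allows on log2 CPM, where chance gives about 1.2. All 6 are in the collagens, and the same 3 animals make them up, so they are not independent. Animal 908 on CSAA at week 12 had 95.7 CPM of Col1a1 and 554 CPM of Col3a1, above 3.13 to 8.42 and 91.2 to 161 CPM in the others. Animal 303 on CDAA at week 4 had 15.2 CPM of Col1a1 and 251 CPM of Col3a1, below 74.8 to 261 and 785 to 1350 CPM. Animal 1102 on CDAA at week 12 had 131 CPM of Col1a1 and 900 CPM of Col3a1, below 213 to 318 and 1260 to 1590 CPM. In Fn1 and Lox these animals lay inside the range of their groups, except that animal 303 had 8.80 CPM of Lox against at least 18.7 CPM in the others.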

How the results depend on the processing

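Both collagens were called higher on CDAA at all 3 weeks under every alternative run, and the Col3a1 and Fn1 ratios to Col1a1 between the diets and the correlation of Col1a1 with Col3a1 kept their calls too. Of 488 values recomputed under alternatives other than leaving out 1 animal, 421 kept direction and side of the threshold, and 898 of 928 did so when 1 animal was left out. Lists of pathway and marker genes could not be matched, so their alternatives were not run. No paired analysis was possible because the groups held different animals by their labels. Among the members, only Col1a2 had too few reads for a test, and the reason was not tested. The causes of the changes below were not tested. Animals 303, 504, 908 and 1102 are extreme in the collagens, so calls gained without them follow in part from how they were chosen. For such cases only effect sizes are given. Ranks by RPKM without them were added after the data were seen. Col1a1 on CDAA at week 12 over week 4 passed in the order of groups with library sizes alone (1.38), where the edgeR median of all genes was 0.29.

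For the diet effect at weeks 4, 8 and 12, Fn1 turned to 0.02, 0.51 and 0.55 with library sizes alone, to 0.02, 0.5 and 0.63 with limma on log2(RPKM + 0.1) and to 0.02, 0.5 and 0.62 with log2(RPKM + 1). Lox at week 4 turned to 0.17 with library sizes, 0.83 with limma-voom, and 1.01 and 0.57 on RPKM plus 0.1 and plus 1. Lox was called at week 8 with limma-voom (2.25) and on RPKM (2.66 and 2.08), and at week 12 on RPKM (2.69 and 1.96). Without single animals, Lox at week 4 ranged from -0.5 to 0.02.

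Between weeks 4 and 8 on CDAA, Col3a1 was called on RPKM plus 0.1 (1.02, 1 member called) and on RPKM plus 1 (1.02, 2 members called, with Col1a1 at 1.27), and 1 member was called between weeks 4 and 12 on RPKM plus 1. Of all 12756 genes, 710 and 195 were called between weeks 4 and 8 on these scales, beside 640 in the main fit. Between weeks 4 and 12, 600 were called on RPKM plus 1, beside 1347 in the main fit. Col1a1 between weeks 8 and 12 on CDAA turned to 0.04 with library sizes, 0.05 without animals 303, 504, 908 and 1102, and 0.03 on RPKM with either pseudocount, and ranged from -0.12 to 0.04 without single animals. Between weeks 8 and 12 on CSAA, Col1a1 moved to -1.41 without those 4 animals, beside -0.55 in the main fit, where 355 of 12756 genes were called. Without single animals Col1a1 ranged from -2.06 to 0.10 and Col3a1 from -1.03 to -0.33, with 0 to 2 members called.

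The diet effect on Col1a1 at week 12 minus week 4 turned to 1.27 with limma-voom, 0.04 with DESeq2 and with RLE factors, 0.22 with library sizes, 1.62 and 1.32 on RPKM, and 1.44 without the 4 animals. It ranged from -0.22 to 1.46 without single animals. That on Col3a1 was called on RPKM (1.52 and 1.5). It was 1.23 without the 4 animals and ranged from 0.63 to 1.24 without single animals. For this difference 1 member was called on RPKM with either pseudocount, and 0 to 1 without single animals. On RPKM plus 0.1 and plus 1, 1356 and 524 of 12756 genes were called, beside 643 in the main fit. For week 12 minus week 8, Col1a1 and Col3a1 had 1.46 and 0.72 without the 4 animals, beside 0.51 and 0.43 in the main fit. There, 0 to 1 members were called without single animals, and 511 of 12756 genes in the main fit.

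The Fn1 to Col1a1 ratio on CDAA at week 12 against 4 was -0.77 without the 4 animals and ranged from -1.17 to -0.63 without single animals. At week 8 against 4 its range was -1.02 to -0.48, and that of Col3a1 to Col1a1 at week 12 against 4 was -0.5 to -0.26, both with some calls. The Lox to Col1a1 ratio between the diets lay between -3.33 and -2.48 after 4 weeks and between -3.18 and -2.19 after 12 weeks, with some calls lost.

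The r of Fn1 turned to 0.22 with Col1a1 and 0.25 with Col3a1 on RPKM, to 0.23 and 0.26 with library sizes, and to 0.03 and 0.02 without the 4 animals. That of Col3a1 with Lox turned to -0.06 without the 4 animals, and that of Fn1 with Lox to 0.24 among CDAA animals. In the order of groups, library sizes alone turned CDAA week 8 over week 12 for Col1a1 (-0.03), and CSAA over CDAA for Fn1 at weeks 8 (-0.51) and 12 (-0.63), with 4 of 5 steps of Fn1 passing. Without the 4 animals, the same step of Col1a1 was -0.06, CSAA week 8 over week 4 for Col3a1 was -0.05, and for Fn1 CDAA week 8 over CSAA week 12 was 0.0 and CDAA week 12 over week 4 was -0.04.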
